A study of Mus musculus with 16 samples.

Results

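*H19*, *Igf2*, *Meg3*, *Rian*, *Mirg*, *Dlk1*, *Cdkn1c*, *Peg3*, *Grb10* and *Mest* are imprinted genes known for their part in the control of growth. They were picked by name, with earlier results of these data known, and all 10 were found among the 24421 genes of the count tables. Their poly(A) RNA was measured in the gastrocnemius (Gas), a muscle made mostly of fast fibers, and in the soleus (Sol), which is rich in slow fibers. Each muscle had 3 libraries from WT and 5 from LSD1-mKO mice, 16 in all. The LSD1-mKO mice carry floxed *Lsd1* alleles and a CreERT2 recombinase driven by the human *ACTA1* promoter, which is active in differentiating and differentiated muscle cells, so that the other cells of the muscle keep the gene. The WT mice carry the floxed alleles but no CreERT2. All were C57BL/6 males aged 8 weeks at the first of 5 daily doses of tamoxifen (75 mg/kg), and all were also given dexamethasone, a synthetic glucocorticoid, at 1 mg/kg for 7 days. No muscle free of tamoxifen and dexamethasone was compared here.

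An imprinted gene is transcribed mainly from the copy inherited from 1 parent, and DNA methylation laid down in the germ line tells the copies apart. Many such genes act on growth before birth, with paternally expressed genes such as *Igf2* tending to promote it and maternally expressed genes such as *Cdkn1c* and *Grb10* tending to restrain it. In skeletal muscle most of them are strong in the embryo and the newborn and weak in the adult, and several are active again in satellite cells and during regeneration. The strain is inbred and the reads were counted per gene, so the parental copy that a read came from was not measured. In whole muscle, fewer cells of a type and less RNA per cell cannot be told apart.

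The genes lie in 6 places in the mouse genome, given here by their GENCODE spans in GRCm38. *H19* (chr7:142575529-142578143, minus strand), a non-coding RNA read from the maternal copy, neighbours *Igf2* (chr7:142650766-142666816, minus strand), which encodes a growth factor of the insulin family and is read from the paternal copy. *Cdkn1c* (chr7:143458339-143461050, minus strand) encodes p57, an inhibitor of cyclin-dependent kinases. *Dlk1* (chr12:109452823-109463336, plus strand) encodes a transmembrane protein related to Notch ligands and is paternally expressed. Downstream of it on the same strand lie the maternally expressed non-coding RNAs *Meg3* (chr12:109541001-109571726), *Rian* (chr12:109603940-109661716) and *Mirg* (chr12:109729764-109749460), which host small nucleolar RNAs and microRNAs and are often regarded as pieces of a single long transcription unit. *Peg3* (chr7:6703892-6730431, minus strand) encodes a zinc finger protein, *Grb10* (chr11:11930508-12038683, minus strand) an adaptor that binds the insulin and IGF1 receptors, and *Mest* (chr6:30723547-30748465, plus strand) a member of the alpha/beta hydrolase fold family.

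The microRNAs that lie within the *H19* and *Rian* genes are shown because the values below turn on these 2 host RNAs. Mature sequences are from RefSeq on GRCm38.p6, 5′ to 3′, with the seed (bases 2 to 8) in capitals. The hairpin of miR-675 lies within an *H19* exon on the minus strand, and those of miR-341, miR-1188 and miR-370 lie outside the *Rian* exons of GENCODE, on the plus strand.
miR-675-5p (chr7:142577112-142577133): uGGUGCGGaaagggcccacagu
miR-675-3p (chr7:142577078-142577099): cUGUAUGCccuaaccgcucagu
miR-341-5p (chr12:109611521-109611541): cGGUCGGCcgaucgcucgguc
miR-341-3p (chr12:109611556-109611576): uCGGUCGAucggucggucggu
miR-1188-5p (chr12:109611841-109611861): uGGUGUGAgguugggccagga
miR-1188-3p (chr12:109611877-109611901): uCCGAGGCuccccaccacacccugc
miR-370-5p (chr12:109618270-109618289): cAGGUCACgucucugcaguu
miR-370-3p (chr12:109618305-109618326): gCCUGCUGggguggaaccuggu
No 2 of these 8 share a seed. Over the 40 mature microRNAs within 6 of the genes there were 39 seeds, and the shared 1, GGUUGCC, belongs to miR-453 and miR-496a-5p of *Mirg*. Poly(A) libraries read the host RNA and not the mature microRNA. The 3 microRNA genes within *Rian* held 2 reads over all Gas and 2 over all Sol libraries, and *Mir675* held 0 in each, so the microRNAs themselves were not measured.

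Start regions of 4 of the genes are shown because 3 of them, *Rian*, *Peg3* and *Grb10*, had separate genotype groups in Sol (below) and *Meg3*, upstream of *Rian* in the same domain, did not. Each runs from 250 bases before to 50 after a RefSeq start in GRCm38.p6, is written in the direction of transcription and has CpG dinucleotides, the targets of DNA methylation, in capitals.
*Rian* (chr12:109603695-109603994, plus strand): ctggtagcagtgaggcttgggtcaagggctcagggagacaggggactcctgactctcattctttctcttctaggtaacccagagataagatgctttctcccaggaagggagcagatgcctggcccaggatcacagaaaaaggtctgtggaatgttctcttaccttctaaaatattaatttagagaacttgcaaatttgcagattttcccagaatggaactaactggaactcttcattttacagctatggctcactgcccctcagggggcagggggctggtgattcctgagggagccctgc
*Meg3* (chr12:109540746-109541045, plus strand): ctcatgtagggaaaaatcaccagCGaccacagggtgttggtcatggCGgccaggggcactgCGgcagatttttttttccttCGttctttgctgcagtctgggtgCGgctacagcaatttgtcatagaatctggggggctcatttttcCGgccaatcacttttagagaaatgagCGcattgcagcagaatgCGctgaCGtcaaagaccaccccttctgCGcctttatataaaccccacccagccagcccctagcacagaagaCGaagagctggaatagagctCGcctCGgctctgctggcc
*Peg3* (chr7:6730370-6730669, minus strand): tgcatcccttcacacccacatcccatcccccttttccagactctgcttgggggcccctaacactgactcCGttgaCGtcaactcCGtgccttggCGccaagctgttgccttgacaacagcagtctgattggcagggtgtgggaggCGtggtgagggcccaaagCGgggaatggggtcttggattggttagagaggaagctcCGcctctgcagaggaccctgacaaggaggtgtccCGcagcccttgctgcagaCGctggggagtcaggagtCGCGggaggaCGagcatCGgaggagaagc
*Grb10* (chr11:12037371-12037670, minus strand): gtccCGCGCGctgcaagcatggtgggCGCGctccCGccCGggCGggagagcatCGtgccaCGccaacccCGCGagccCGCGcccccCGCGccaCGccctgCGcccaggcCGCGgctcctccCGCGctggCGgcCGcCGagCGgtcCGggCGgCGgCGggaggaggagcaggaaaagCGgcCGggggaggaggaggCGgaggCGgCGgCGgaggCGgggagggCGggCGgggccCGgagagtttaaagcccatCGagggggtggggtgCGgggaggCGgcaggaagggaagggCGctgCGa
For *Meg3* and *Grb10*, the window of the most upstream RefSeq start is shown. The *Rian* window had 0 CpG, the *Meg3* and *Peg3* windows 13 each and the *Grb10* window 45. The second window listed for *Meg3* had 1 CpG and that for *Grb10* had 9, so the count depends on the start chosen. The median over all 32851 promoter windows of that length was 7. Windows with no CpG, as that of *Rian*, made up 5.43% of them, and 98.4% had 45 or fewer. The letters TATAAA, searched on both strands, occurred 2 times in the *Meg3* window, once on each strand with an overlap, and in none of the other 3. They were found in 13.6% of all windows. These windows are a description of the sequence, since neither methylation nor binding was measured here.

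The reads assigned to genes ranged from 10130415 to 24576377 per library. Levels are given in CPM, the reads of a gene scaled to a common library size. The 3 reads that a count of 0 still allows corresponded to 0.103 to 0.340 CPM, which covers counting error only. *Kdm1a*, the symbol of *Lsd1* in the tables, was at 33.4 to 48.2 CPM in the WT and 9.13 to 17.7 CPM in the LSD1-mKO libraries, with no overlap in either muscle. The fiber genes *Acta1*, *Ckm* and *Mb* were abundant in all libraries, and all 4 slow fiber markers were called higher in Sol than in Gas in either genotype. Replicate 3 of WT Gas stood apart on the first principal component of its muscle, and its ribosomal protein genes had a mean of 8.18 log2 CPM. In the other Gas libraries that mean was 6.62 to 7.41, with the highest value in replicate 5 of LSD1-mKO. In Sol it was 6.82 in replicate 2 of WT and 5.96 to 6.39 in the rest. The labels do not say whether replicates came from separate animals, so p-values measure the spread between these samples.

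Per kilobase of merged exons, *H19* was the most abundant of the 10 genes in every group. Its mean level was 283 ± 45.1 CPM per kb (SD, n = 3) in WT Gas and 1678 ± 457 CPM per kb (n = 5) in LSD1-mKO Sol. The next in Gas was *Cdkn1c*, at 28.4 ± 7.75 CPM per kb in WT and 35.7 ± 10.8 in LSD1-mKO. In WT Sol, *Cdkn1c* (10.4 ± 4.60 CPM per kb) and *Grb10* (9.65 ± 0.678 CPM per kb) did not differ beyond their spread, whereas in LSD1-mKO Sol *Grb10* was at 14.8 ± 3.01 and *Cdkn1c* at 7.72 ± 0.399 CPM per kb. *Igf2* had means of 3.89 to 5.26 CPM per kb over the 4 groups, *Peg3* of 1.28 to 4.35, *Meg3* of 1.17 to 2.29 and *Rian* of 0.278 to 2.29. *Mest* had means of 0.210 to 0.604, *Mirg* of 0.0453 to 0.204 and *Dlk1* of 0.0282 to 0.0882 CPM per kb. *Dlk1* and *Mirg* were the lowest of the 10 in every group. The order depends on the exon model, most of all for *Rian*, whose exons span 18.2 kb merged and 8.09 kb in the longest transcript.

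**Figure D1:**
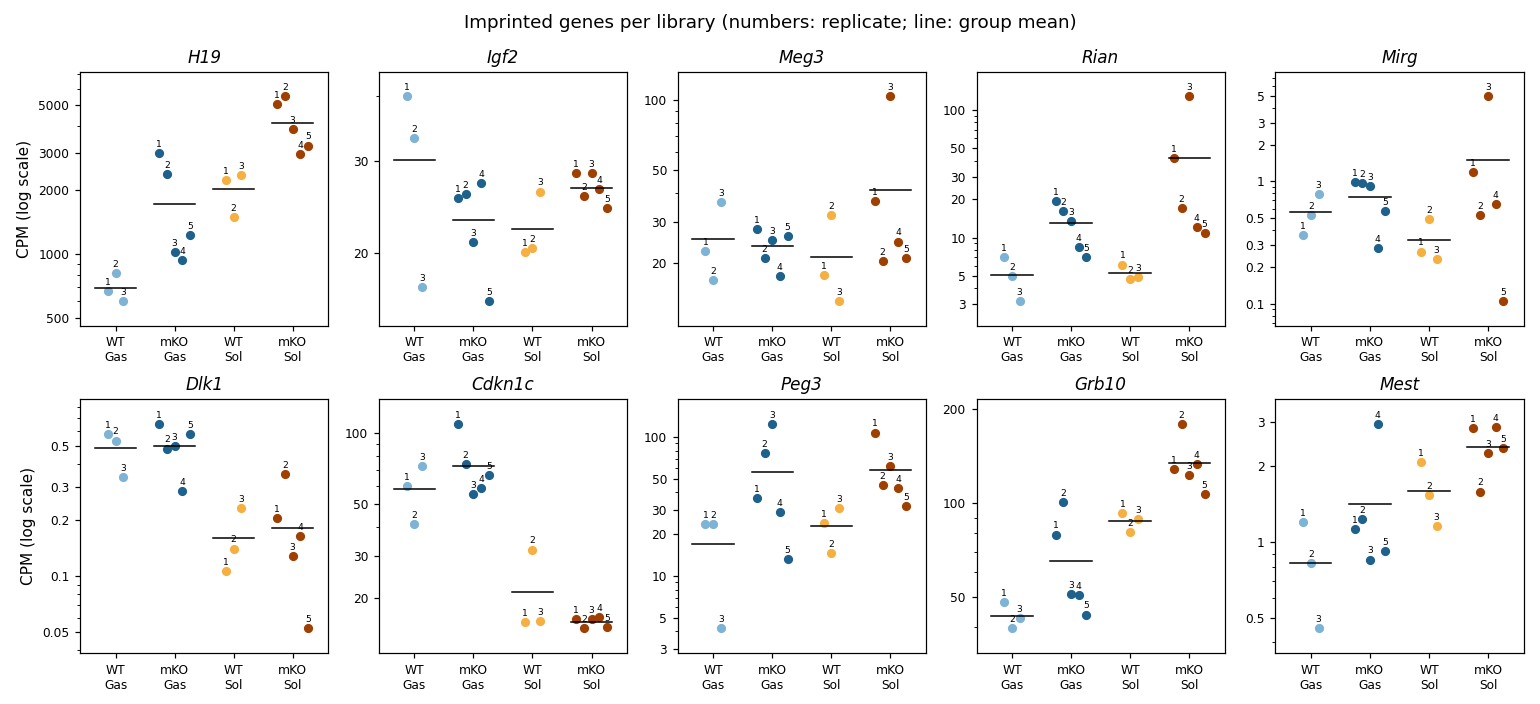
CPM of the 10 imprinted genes in each of the 16 libraries, on a log axis that differs between panels. Each point is a library with its replicate number, and the black line is the group mean (n = 3 for WT, n = 5 for LSD1-mKO). In Sol, all LSD1-mKO points of *H19*, *Rian*, *Peg3* and *Grb10* lie above all WT points, and replicate 3 of LSD1-mKO Sol is the highest point for *Meg3*, *Rian* and *Mirg*.

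Whether loss of LSD1 changes these RNAs was asked in each muscle by comparing LSD1-mKO with WT. In Sol, the levels of *H19*, *Rian*, *Peg3* and *Grb10* were higher in every LSD1-mKO than in every WT library. Their fitted fold changes were 1.52 to 7.90. For all 4, the lowest WT Sol library was replicate 2, which had the highest ribosomal protein level in Sol. None of the 9 genes that passed the filter on low counts was called, however, after adjustment over all genes tested (edgeR's quasi-likelihood test, adjusted p under 0.05), against 0.967% of all 13342 genes. At an unadjusted p under 0.05 there were 4 of 9, against 15.5% of all genes. All 4 were higher in LSD1-mKO, against 8.66% of all genes that were higher at that p. The 4 genes with separate groups and a higher level in LSD1-mKO compare with 6.33% of all genes. In Gas the count of called genes was again 0 of 9, against 0.0307% of 13040 genes. There 3 of 9 had an unadjusted p under 0.05, against 9.06% of all genes, and all 3 (*H19*, *Rian*, *Peg3*) were higher in LSD1-mKO, against 4.75%. The groups were separate for *H19* and *Rian* in Gas, against 4.13% of all genes. The median log2 fold change of the 9 genes was 0.95 in Sol, where it was -0.01 over all genes tested, and 0.59 in Gas, where it was 0.01 over all genes. Since the genes were chosen with earlier results of these data known, these shares and medians are a description only.

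The Sol count depended on the tool. DESeq2 and the edgeR exact test each called 4 of the 9 genes in Sol, *H19*, *Rian*, *Peg3* and *Grb10*, with adjusted p from 0.00221 to 0.0295 and from 0.00674 to 0.0489. limma voom called *H19* and *Grb10*, and the quasi-likelihood test without a filter on low counts called *H19*, *Rian* and *Peg3*. Some alternatives lowered the Sol effects. Over the 10 alternatives other than single libraries left out, the lowest log2 fold changes were 0.85 (*H19*), 2.06 (*Rian*), 0.84 (*Peg3*) and 0.56 (*Grb10*). The highest adjusted p of these fits were 0.236, 0.261, 0.451 and 0.309 in the same order. With 1 library left out, the log2 fold changes were 0.85 to 1.15 (*H19*), 1.95 to 3.23 (*Rian*), 0.99 to 1.59 (*Peg3*) and 0.48 to 0.68 (*Grb10*). The lowest *H19* value, 0.85, came without replicate 2 of WT Sol. In Gas, DESeq2, the exact test and limma voom called none of the 9.

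**Figure D2:**
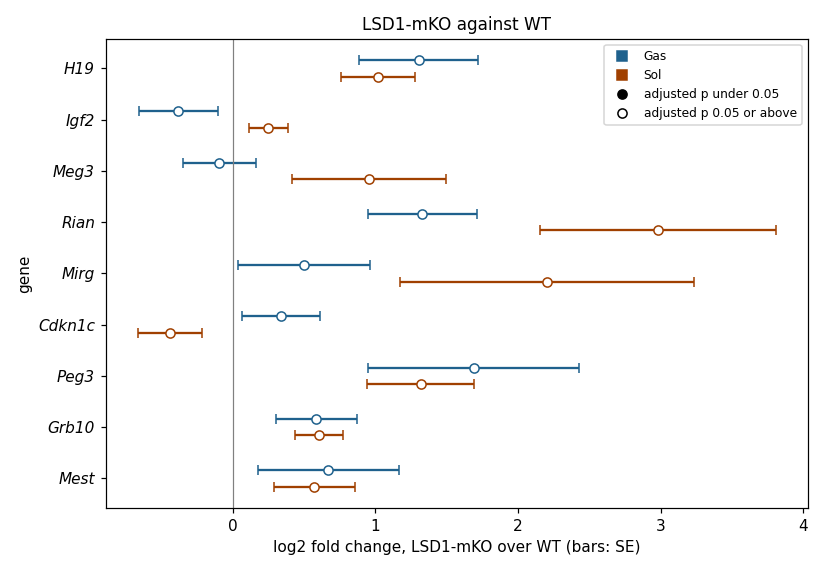
Log2 fold changes of LSD1-mKO over WT in Gas and in Sol for the 9 genes that passed the filter, from edgeR's quasi-likelihood fit of each muscle. Bars are standard errors, and open points mark adjusted p of 0.05 or above, which holds for all 18 points. The estimates of *H19*, *Rian*, *Mirg*, *Peg3*, *Grb10* and *Mest* lie to the right of 0 in either muscle, and that of *Rian* in Sol, 2.98, is the highest.

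*H19*, the abundant maternal non-coding RNA and host of miR-675 shown above, was at 2231, 1492 and 2350 CPM in the WT Sol libraries. In LSD1-mKO Sol it was at 5078, 5511, 3858, 2960 and 3237 CPM. The groups did not overlap, and the lowest LSD1-mKO library was 1.26 times the highest WT library. LSD1-mKO was thus 2.03-fold higher (log2 1.02, SE 0.26, edgeR adjusted p = 0.0947). In Gas the WT libraries were at 669, 818 and 601 CPM and the LSD1-mKO libraries at 2997, 2376, 1028, 934 and 1227 CPM. Again the groups did not overlap, but 2 LSD1-mKO libraries lay far above the other 3. The fold change was 2.47 (log2 1.30, SE 0.42, edgeR adjusted p = 0.426). Between the muscles the effect differed by -0.27 (SE 0.49, edgeR unadjusted p of the interaction 0.589).

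*Igf2*, the paternal growth factor gene next to *H19*, did not have this pattern. In Sol it was at 20.1, 20.4 and 26.2 CPM in WT and at 28.4, 25.7, 28.4, 26.5 and 24.3 CPM in LSD1-mKO. The groups overlapped, and the log2 fold change was 0.25 (SE 0.13, edgeR adjusted p = 0.412). In Gas, WT libraries were at 39.8, 33.2 and 17.2 CPM and LSD1-mKO libraries at 25.5, 25.9, 21.0, 27.2 and 16.2 CPM, with a log2 fold change of -0.38 (SE 0.28, edgeR adjusted p = 0.628). The lowest value of each Gas group was in the library with the highest ribosomal protein level of that group.

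*Rian*, a maternal non-coding RNA and host of the miR-341, miR-1188 and miR-370 genes, had the highest fold change of the 10 genes in Sol. Its levels were 6.15, 4.71 and 4.92 CPM in WT Sol and 41.8, 17.0, 127, 12.0 and 10.8 CPM in LSD1-mKO Sol. All 5 LSD1-mKO libraries lay above the 3 WT libraries, but they spanned a range of 11.8 times. On average LSD1-mKO was 7.90-fold higher (log2 2.98, SE 0.83, edgeR adjusted p = 0.114). Without replicate 3 of LSD1-mKO, the highest, the log2 fold change was 1.95 (adjusted p = 0.108). In Gas the levels were 7.02, 5.03 and 3.18 CPM in WT and 19.3, 16.2, 13.5, 8.49 and 7.06 CPM in LSD1-mKO. The groups did not overlap, although the highest WT and the lowest LSD1-mKO library were almost level. The log2 fold change in Gas was 1.33 (SE 0.38, edgeR adjusted p = 0.408). The effect was 1.67 (SE 0.93) greater in Sol, with an edgeR unadjusted p of 0.0921 for the interaction.

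*Meg3*, the first RNA of that transcription unit and known as a growth suppressor, was at 17.8, 32.2 and 13.7 CPM in WT Sol and at 36.8, 20.4, 104, 24.7 and 21.0 CPM in LSD1-mKO Sol. Replicate 3 of LSD1-mKO stood far above the rest and the groups overlapped. The log2 fold change was 0.95 (SE 0.54, edgeR adjusted p = 0.436) and 0.27 (adjusted p = 0.755) without that library. In Gas, *Meg3* was at 22.6, 17.0 and 36.6 CPM in WT and at 28.1, 21.0, 25.0, 17.6 and 26.2 CPM in LSD1-mKO, a log2 fold change of -0.09 (SE 0.26, edgeR adjusted p = 0.896). The sign in Gas turned to 0.27 without replicate 3 of WT, which had both the highest *Meg3* level and the highest ribosomal protein level.

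*Mirg*, the last of the 3 RNAs, was barely measured, at 2 to 116 reads per library. In Sol it was at 0.267, 0.492 and 0.232 CPM in WT and at 1.20, 0.530, 4.95, 0.654 and 0.105 CPM in LSD1-mKO. The last value, from 2 reads, was the lowest of all 8 and the groups overlapped. Its log2 fold change was 2.20 (SE 1.03, edgeR adjusted p = 0.337), and without replicate 3 of LSD1-mKO the gene no longer passed the filter. The Gas value was 0.50 (SE 0.46, edgeR adjusted p = 0.689), with WT libraries at 0.367 to 0.794 and LSD1-mKO libraries at 0.286 to 0.982 CPM.

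*Cdkn1c*, the p57 gene, had no common direction. In Sol it was at 15.7, 32.0 and 15.9 CPM in WT and at 16.3, 14.8, 16.2, 16.5 and 15.0 CPM in LSD1-mKO. Apart from replicate 2 of WT, which held the highest ribosomal protein level in Sol, the 7 libraries lay within 14.8 to 16.5 CPM. The log2 fold change was -0.44 (SE 0.22, edgeR adjusted p = 0.379) with that library and -0.0040 (adjusted p = 0.992) without it. Gas levels were 59.7, 41.3 and 72.7 CPM in WT and 110, 73.8, 55.2, 58.4 and 66.5 CPM in LSD1-mKO, a log2 fold change of 0.34 (SE 0.27, edgeR adjusted p = 0.658). The effect in Sol minus that in Gas was -0.76 (SE 0.36, edgeR unadjusted p of the interaction 0.0524).

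*Grb10*, the adaptor that damps insulin and IGF1 receptor signalling, had tight groups in Sol. It was at 92.9, 80.9 and 89.3 CPM in WT and at 129, 180, 123, 133 and 107 CPM in LSD1-mKO. No LSD1-mKO library reached down to the WT range, and the log2 fold change was 0.60 (SE 0.17, edgeR adjusted p = 0.121). The levels in Gas were 48.3, 39.7 and 42.8 CPM in WT and 79.4, 101, 51.1, 50.6 and 44.0 CPM in LSD1-mKO. There 1 LSD1-mKO library lay within the WT range, and the log2 fold change was 0.59 (SE 0.29, edgeR adjusted p = 0.555). The replicates that were highest for *Grb10* in Gas, 1 and 2 of LSD1-mKO, were also the highest for *H19*.

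*Peg3*, the paternally expressed zinc finger gene, was at 23.9, 14.7 and 30.7 CPM in WT Sol and at 108, 45.3, 61.8, 43.1 and 31.8 CPM in LSD1-mKO Sol. The groups did not overlap, by a margin of 1.04 times. LSD1-mKO was 2.49-fold higher on average (log2 1.32, SE 0.38, edgeR adjusted p = 0.124). In Gas it was at 23.5, 23.6 and 4.20 CPM in WT and at 36.5, 76.6, 125, 28.7 and 13.3 CPM in LSD1-mKO. The lowest library of each Gas group was again the one with the highest ribosomal protein level, and the groups overlapped through replicate 5 of LSD1-mKO. The log2 fold change in Gas was 1.69 (SE 0.74, edgeR adjusted p = 0.548) and 1.52 (adjusted p = 0.357) with these 2 libraries left out.

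*Mest* and *Dlk1*, both paternally expressed, were at the low end. *Mest* was at 2.09, 1.54 and 1.16 CPM in WT Sol and at 2.85, 1.59, 2.26, 2.86 and 2.36 CPM in LSD1-mKO Sol, with a log2 fold change of 0.57 (SE 0.28, edgeR adjusted p = 0.366). In Gas the WT libraries were at 1.20, 0.828 and 0.454 CPM and the LSD1-mKO libraries at 1.12, 1.24, 0.852, 2.96 and 0.918 CPM, with a log2 fold change of 0.67 (SE 0.50, edgeR adjusted p = 0.634). The groups of *Mest* overlapped in either muscle. Of its exon bases 23.1% are shared with *Copg2* on the other strand, and reads that fall in 2 genes were left out of the counts, so the level of *Mest* is uncertain. *Dlk1* had 3 to 14 reads per library in Gas and 1 to 6 in Sol and did not pass the filter. Without the filter its log2 fold change was 0.05 (SE 0.49) in Gas and 0.16 (SE 0.73) in Sol, with edgeR adjusted p of 0.976 and 0.948.

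For the interaction of genotype and muscle, 0 of the 9 genes were called by edgeR's quasi-likelihood test, by DESeq2 and by limma voom, as was 0% of the 13749 genes tested by the first. None of the 9 had an unadjusted p under 0.05 in that fit, against 4.88% of all genes. The effects in Gas and in Sol were therefore not shown to differ for any of them.

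Ratios of reads within a library compare neighbours of a cluster without any scaling between libraries. In Sol the *Rian* to *Meg3* read ratio was 0.146 to 0.359 in the 3 WT and 0.486 to 1.23 in the 5 LSD1-mKO libraries. The groups did not overlap, and the mean log2 ratio was 1.57 higher in LSD1-mKO (two-sided exact permutation test, p = 0.0357, the smallest that 3 against 5 allows, adjusted p = 0.0714 over 4 ratio tests). In Gas it was 0.0867 to 0.311 in WT and 0.270 to 0.774 in LSD1-mKO, a difference of 1.37 (exact permutation p = 0.107, adjusted p = 0.107). There replicate 5 of LSD1-mKO lay below the highest WT library. Replicate 3 of LSD1-mKO Sol, which was the highest of its group for *Meg3* and *Rian* alike, had the highest ratio too. The lowest ratio of WT Gas (replicate 3), LSD1-mKO Gas (replicate 5) and WT Sol (replicate 2) was in the library highest in ribosomal protein level of its group. In LSD1-mKO Sol it was not: replicate 4 had the lowest ratio (0.486), and replicate 5 (0.515) the highest ribosomal protein level. Without replicate 2 of WT Sol, the difference in Sol was 1.15.

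The *H19* to *Igf2* read ratio was 73.0 to 111 in WT Sol and 112 to 215 in LSD1-mKO Sol, a log2 difference of 0.74 (exact permutation p = 0.0357, adjusted p = 0.0714). The groups almost touched. The lowest WT Sol ratio was again in replicate 2, the Sol library highest in ribosomal protein level, and without it the log2 difference was 0.59. In Gas it was 16.8 to 34.8 in WT and 34.4 to 118 in LSD1-mKO, a log2 difference of 1.46 (exact permutation p = 0.0714, adjusted p = 0.0952), and 1 LSD1-mKO library lay just under the highest WT library. All 4 differences had the same sign, toward the maternal RNA *H19* and toward the downstream RNA *Rian*, and 0 of 4 passed at an adjusted p under 0.05. The ratios were chosen after the levels of these genes had been seen.

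**Figure D3:**
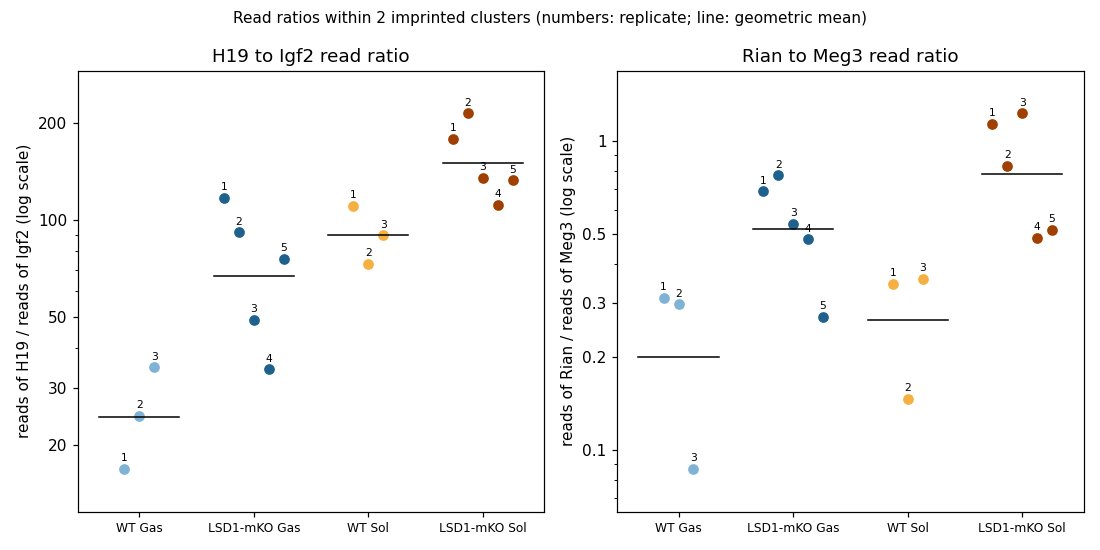
Read ratios of *H19* to *Igf2* (left) and of *Rian* to *Meg3* (right) in each library, on log axes. Points carry replicate numbers and lines are geometric means (n = 3 for WT, n = 5 for LSD1-mKO). In Sol the LSD1-mKO libraries lie above all WT libraries in both panels, and in Gas the groups overlap.

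The muscles themselves differed for 3 of the 10 genes in WT. *H19* was 2.91-fold and *Grb10* 2.01-fold higher in Sol than in Gas, and *Cdkn1c* was 2.73-fold lower. The log2 differences were 1.54 (SE 0.40, edgeR adjusted p = 0.0136) for *H19*, 1.01 (SE 0.27, adjusted p = 0.0168) for *Grb10* and -1.45 (SE 0.29, adjusted p = 0.00270) for *Cdkn1c*. These 3 of 9 compare with 17.0% of all 13749 genes, and the 2 that were higher in Sol with 8.75%. In WT the libraries of the muscles did not overlap for any of the 3.

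In LSD1-mKO, 4 of 9 genes were called between the muscles, against 24.5% of all genes, and 3 of them were higher in Sol, against 12.9%. *H19* was 2.41-fold higher in Sol (log2 difference 1.27, SE 0.31, edgeR adjusted p = 0.00602), although the highest Gas library (2997 CPM) lay just above the lowest Sol library (2960 CPM). *Grb10* was 2.06-fold higher (log2 difference 1.04, SE 0.21, adjusted p = 0.00147), with no overlap. *Cdkn1c* was 4.62-fold lower in Sol (log2 difference -2.21, SE 0.23, adjusted p = 3.86e-06). Its 5 Sol libraries lay at 14.8 to 16.5 CPM and its 5 Gas libraries at 55.2 to 110 CPM. *Rian* was 3.23-fold higher in Sol (log2 difference 1.69, SE 0.55, adjusted p = 0.0346), with overlapping libraries. That call ended with the replicate number as a block (1.08, adjusted p = 0.0622) and without replicate 3 of LSD1-mKO Sol (0.64, adjusted p = 0.248). It also ended without replicate 1 of LSD1-mKO Sol or replicate 3, 4 or 5 of LSD1-mKO Gas (edgeR adjusted p = 0.0601 to 0.0840). Under limma voom the difference was 0.70 (adjusted p = 0.278), with a covariate for ribosomal protein level 1.37 (edgeR adjusted p = 0.144) and without the libraries highest in that level 1.53 (edgeR adjusted p = 0.0831), none of them called. *Mest*, at 0.80 (SE 0.33, adjusted p = 0.0847), was called with the block (0.87, adjusted p = 0.0423) and without replicate 4 of LSD1-mKO Gas (1.18, adjusted p = 0.00735).

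*Cdkn1c* kept its call in either genotype with each single library left out, and so did *H19* and *Grb10* in LSD1-mKO. In WT, *H19* was no longer called without replicate 3 of WT Gas (adjusted p = 0.0512), and neither *H19* nor *Grb10* was called without replicate 1 (adjusted p = 0.0568 and 0.0683) or replicate 3 (0.0594 and 0.0575) of WT Sol. *Igf2* (-0.44, adjusted p = 0.234 in WT) was called lower in Sol without replicate 3 of WT Gas (-0.74, adjusted p = 0.0218). It was also called with limma voom (-0.61, adjusted p = 0.00285), with a covariate for ribosomal protein level (-0.96, adjusted p = 0.00721) and without the libraries highest in that level (-0.67, adjusted p = 0.0132). *Meg3*, *Mirg* and *Peg3* were not called in either genotype. *Dlk1*, with the filter removed, had a log2 difference of -1.58 (SE 0.65, edgeR adjusted p = 0.142) in WT and -1.49 (SE 0.47, adjusted p = 0.0365) in LSD1-mKO, from 1 to 14 reads per library. The Gas and Sol libraries were deposited in separate tables with separate library names, so the muscle and a possible sequencing run cannot be told apart.

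**Figure D4:**
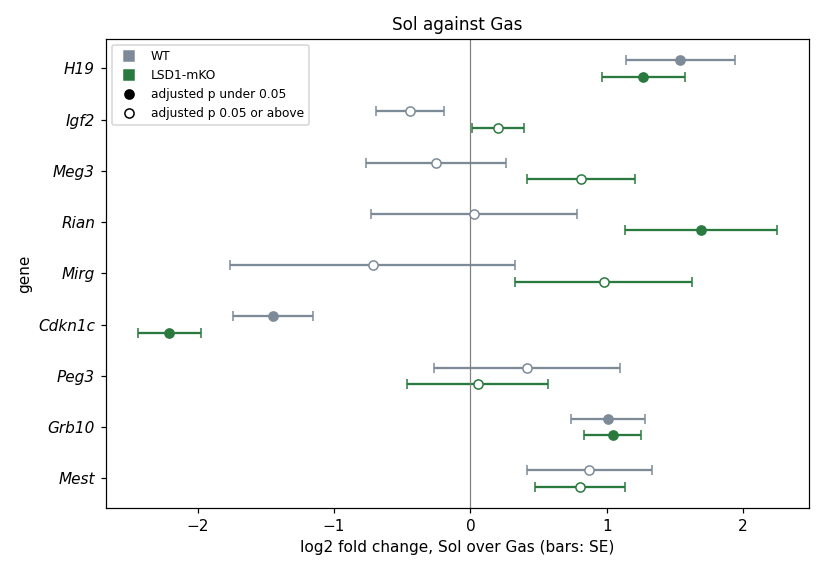
Log2 fold changes of Sol over Gas for the 9 genes tested, in WT and in LSD1-mKO, from edgeR's quasi-likelihood fit of all 16 libraries. Bars are standard errors, and filled points mark adjusted p under 0.05. *Cdkn1c* lies at -1.45 and -2.21, and *H19* and *Grb10* lie between 1.01 and 1.54, all filled.

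Marker genes of other cells and states moved with some of these values. The summed level of 6 genes of regenerating or newly formed fibers (*Myh3*, *Myh8*, *Myog*, *Myod1*, *Ncam1*, *Chrng*) was 96.7 to 139 CPM in WT Sol and 177 to 350 CPM in LSD1-mKO Sol, with no overlap. Of these 6 genes, 5 had an unadjusted p under 0.05 in Sol, against 15.5% of all genes. All 5 were higher in LSD1-mKO, against 8.66% of all genes, and 0 were called (edgeR). *Myh3*, an embryonic myosin, differed by 1.47 on the log2 scale (SE 0.34, edgeR adjusted p = 0.0712), and *Chrng*, the fetal subunit of the acetylcholine receptor, by 4.18 (SE 1.05, adjusted p = 0.0891). The 5 satellite cell markers summed to 44.9 to 55.0 CPM in WT Sol and 64.0 to 82.7 CPM in LSD1-mKO Sol, where *Pax7*, the defining marker, differed by 0.44 on the log2 scale (SE 0.22, edgeR adjusted p = 0.361). *Cdh15*, the cadherin gene that made up most of that sum, differed by 0.66 (SE 0.15, adjusted p = 0.0681). It was the only one of the 5 with an unadjusted p under 0.05, against 15.5% of all genes. In Gas the regenerating fiber sum was 41.3 to 77.5 CPM in WT and 51.2 to 187 CPM in LSD1-mKO, and the satellite cell sum 33.3 to 54.9 and 44.4 to 59.8 CPM, both with overlap. Of the 5 regenerating fiber genes tested in Gas, 4 were higher in LSD1-mKO and 1, *Myod1* (log2 fold change -0.47), was lower. Only *Myh8* (2.20, SE 0.56, edgeR adjusted p = 0.330) had an unadjusted p under 0.05, against 9.06% of all genes. The part of such fibers and cells in the levels of *H19*, *Rian*, *Peg3* and *Grb10* was not tested.

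The sums of the other marker lists overlapped between the genotypes in either muscle. The fibroblast sum was 292 to 572 CPM in WT and 324 to 1321 CPM in LSD1-mKO Sol, the leukocyte sum 26.4 to 28.3 and 22.8 to 61.6 CPM, and the endothelial sum 369 to 512 and 355 to 480 CPM. Single genes of these lists had an unadjusted p under 0.05 in Sol, as did 15.5% of all genes, without being called. Higher in LSD1-mKO, against 8.66% of all genes, were 2 of the 4 leukocyte markers, *Cd68* (log2 fold change 1.95, SE 0.45, edgeR adjusted p = 0.0699) and *Adgre1* (0.76, SE 0.30, adjusted p = 0.254). So were 1 of the 6 fibroblast markers, the collagen gene *Col3a1* (1.53, SE 0.50, adjusted p = 0.174), and the fast fiber gene *Myh4* (2.60, SE 0.76, adjusted p = 0.134). Lower were the fast fiber gene *Myh1* (-1.43, SE 0.54, adjusted p = 0.238), the adipocyte genes *Cfd* (-1.09, adjusted p = 0.224) and *Adipoq* (-0.70, adjusted p = 0.317) and the fiber gene *Mb* (-0.78, adjusted p = 0.197). The defining leukocyte marker *Ptprc* differed by 0.25 (SE 0.28, adjusted p = 0.723). The part of these cells in the levels of the imprinted genes was not tested. The Schwann cell sum, from 3 myelin genes, was 97.3 to 204 CPM in WT and 87.2 to 465 CPM in LSD1-mKO Gas. In Sol it was 44.4 to 131 and 72.8 to 103 CPM, lower than most Gas libraries as *Cdkn1c* was. The fast fiber sum was 94008 to 113432 CPM in WT and 57894 to 97226 CPM in LSD1-mKO Gas, and 20688 to 31303 and 11684 to 24780 CPM in Sol.

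How the genes varied within groups was described by the deviation of each library from its group mean in log2 CPM, over 16 libraries that may share animals. The deviations of *H19* and *Grb10* had a Pearson's r of 0.77 (Spearman's rho 0.71), and 0.66 without the 2 libraries farthest from the median. *Meg3* and *Mirg* had an r of 0.83 (rho 0.76, 0.66 without 2 libraries). For *Rian* and *Mirg* (r 0.78, rho 0.55), *Meg3* and *Rian* (r 0.67, rho 0.47) and *Igf2* and *Peg3* (r 0.68, rho 0.50), r rested largely on 2 libraries. Without these it was 0.39, 0.38 and 0.29. *H19* and its neighbour *Igf2* had an r of 0.30. Against the mean level of ribosomal protein genes, *Peg3* had an r of -0.79 (rho -0.75, -0.78 without 2 libraries) and *Igf2* of -0.79 (rho -0.51, -0.43 without 2). *H19* had an r of 0.67 (rho 0.46, 0.50 without 2) with the regenerating fiber sum and of -0.68 (rho -0.70, -0.67 without 2) with the fast fiber sum. With the fast fiber sum, *Rian* had an r of -0.64 (rho -0.77, -0.76 without 2) and *Peg3* of -0.64 (rho -0.70, -0.63 without 2). *Cdkn1c* had an r of 0.78 (rho 0.76, 0.62 without 2) with the Schwann cell sum, and *Grb10* of 0.65 (rho 0.54, 0.66 without 2). These values are a selection, since each gene was set against each marker sum.

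**Figure D5:**
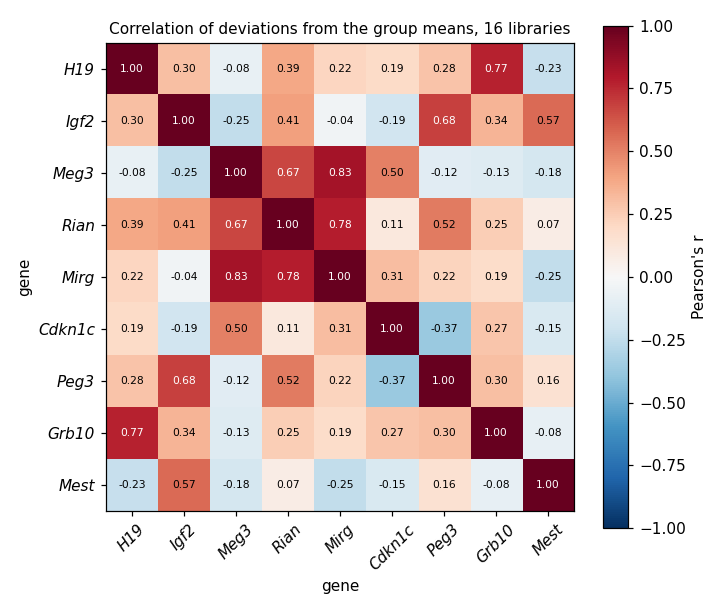
Pearson's r between the 9 genes tested, from the deviations of log2 CPM from the group mean over 16 libraries. The color scale runs from -1 to 1. The pairs *Meg3* and *Mirg* (0.83), *Rian* and *Mirg* (0.78) and *H19* and *Grb10* (0.77) have the highest values. That of *Rian* and *Mirg* was 0.39 without the 2 libraries farthest from the median.

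Over all 16 libraries, group differences included, the genes with the pattern most like that of each gene were named from 13749 genes by Pearson's r of log2 CPM. They were *Tmc7* (r 0.97) and *Rab15* (0.97) for *H19*, *Ticam1* (0.92) and *Itga3* (0.91) for *Rian*, and *Mirg* (0.82) and *Tmem252* (0.81) for *Meg3*. For *Cdkn1c* they were *Bsg* (0.97) and *Ociad2* (0.97), for *Grb10* *Atp1b4* (0.96) and *Adcy1* (0.95), for *Peg3* *Mfsd4* (0.93) and *Esyt2* (0.93), and for *Igf2* *Actg1* (0.83) and *Dab2ip* (0.81). For *H19*, *Grb10* and *Cdkn1c* these values include the difference between the muscles.

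A list of 55 other imprinted genes gave the wider picture, and 54 of them were in the tables. In Sol, 39 were tested and 0 were called by edgeR's quasi-likelihood test, with 7 higher and 4 lower at an unadjusted p under 0.05 and a median log2 fold change of 0.04. Over all genes in Sol, 15.5% had such a p and 8.66% had it and were higher. In Gas, 35 were tested and 0 were called, with 2 higher and 3 lower at that p, against 9.06% of all genes in either direction, and a median of -0.10. The 3 with the smallest p in Sol were *Ppp1r9a*, a regulator of actin and phosphatase 1 (log2 fold change 0.91, SE 0.19, adjusted p = 0.0544), *Osbpl5*, an oxysterol-binding protein gene (0.61, SE 0.17, adjusted p = 0.124), and *Copg2*, a coat protein gene that overlaps *Mest* (0.49, SE 0.15, adjusted p = 0.137). In Gas they were *Nnat*, a membrane proteolipid gene (-1.13, SE 0.37, adjusted p = 0.441), *Peg10*, derived from a retrotransposon (1.60, SE 0.55, adjusted p = 0.471), and *Asb4*, a ubiquitin ligase subunit gene (-0.87, SE 0.30, adjusted p = 0.472). These medians, 0.04 in Sol and -0.10 in Gas, stand beside 0.95 and 0.59 for the 9 growth-control genes. Both lists were chosen with earlier results of these data known, so this contrast is a description only.

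Genes that start within 250 kb of the 10 numbered 112, of which 19 were tested in Sol and 17 in Gas. None was called by edgeR's quasi-likelihood test in either muscle, and 4 in Sol and 1 in Gas had an unadjusted p under 0.05, against 15.5% and 9.06% of all genes. Their median log2 fold change was 0.04 in Sol and -0.06 in Gas. The tested neighbours lay near *H19*, *Igf2*, *Cdkn1c* and *Mest*, apart from *Zim1* near *Peg3* and, in Sol only, *Ddc* near *Grb10*. No neighbour of *Meg3*, *Rian*, *Mirg* or *Dlk1* was tested, so the surroundings of these genes were not examined.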

How the data were processed

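Poly(A) RNA libraries of Gas and Sol muscle, sequenced with 75 bp single-end reads, were aligned by the authors to mm10 with STAR. Reads were then assigned by featureCounts 1.5.2 over iGenomes UCSC exons, per the file headers. The deposited values are raw counts of reads per gene. No strand option is named, and reads that fall in several places or genes were left out, so overlapping and antisense genes are uncertain. Of the bases in their exons *Mest* shares 23.1%, *Mirg* 5.03%, *H19* 3.41%, *Igf2* 1.71%, *Rian* 1.2% and *Meg3* 0.962% with other genes. The authors' own tables of fold changes and p-values were not used.

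Groups follow the labelled genotype and muscle. All count columns could be matched to the titles. The lowest chi-square per degree of freedom between replicates was 16.7, so that no pair of libraries agreed within sampling noise. The 10 genes, the marker lists and the list of other imprinted genes were chosen with earlier results of these data known. The rule names all 10 genes, the 3 other imprinted genes with the smallest p in each muscle, called neighbours, and the 2 most alike genes of each gene with a mean of 50 reads or more. Members of the marker lists were named after their values were seen.

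In R 4.3.3 with edgeR 4.0.16, genes were kept by filterByExpr (minimum count 10), scaled by TMM and tested with the two-sided quasi-likelihood F-test over the whole table. Each muscle was fitted alone for the genotypes, and all 16 libraries together for the interaction and for the muscles. A gene was called at a Benjamini-Hochberg adjusted p under 0.05, and the SE is the absolute log2 fold change over the square root of F. CPM use the TMM sizes of all 16 libraries, and log2 CPM a prior count of 0.5. Read ratios were tested by exact permutation of the 56 splits of 3 and 5 libraries. The alternatives were RLE scaling, no filter, DESeq2 1.42.0, limma 3.58.1 voom with quality weights, the exact test, 1 fit of 16 libraries, the replicate number as a block, the ribosomal protein level as a covariate, the libraries highest in it left out, and each library left out. A newer form of the quasi-likelihood fit and the ratios were added after seeing the data. The scripts were tested on simulated counts.

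The labels do not say whether same-numbered Gas and Sol libraries came from the same mice. In LSD1-mKO, the deviations of same-numbered libraries of the muscles correlated at 0.202 to 0.333 over genes in all 5 pairs. Differently numbered libraries were not compared, so these values cannot settle whether the numbers pair the muscles. The correlations were -0.476 to 0.109 between the muscles of WT. Between same-numbered libraries of the genotypes they were -0.144 to 0.280 in Gas and 0.00178 to 0.106 in Sol.

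Gene spans and exon lengths are from GENCODE M21 on GRCm38, not the annotation used for the counts. All 10 genes matched by symbol, and 8 had a RefSeq promoter entry.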

Additional observations from a re-analysis of the deposited data

Results flagged for a closer look

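Of 20 sets of 5 LSD1-mKO libraries (10 genes in 2 muscles), 4 held a library whose gap to its nearest neighbour took up more of the whole range than Dixon's critical value of 0.71 for 5 samples. Chance alone gives about 1 such set in 20 for normally distributed values, which CPM are not. On the log2 CPM scale 0 of the 20 sets passed that value, and the 4 gaps were 0.638 (*Meg3*), 0.452 (*Rian*), 0.368 (*Mirg*) and 0.699 (*Mest*) of the range. In 3 of the 4 the library was replicate 3 of LSD1-mKO Sol, and the genes were the 3 neighbouring non-coding RNAs, which are not independent of each other. *Meg3* was at 104 CPM there, against 36.8 CPM in the next library, a gap of 0.804 of the range. *Rian* was at 127 CPM, against 41.8 CPM, a gap of 0.734, and *Mirg* at 4.95 CPM, against 1.20 CPM, a gap of 0.774. The second highest library for all 3 was replicate 1 of LSD1-mKO Sol. In the other set, *Mest* was at 2.96 CPM in replicate 4 of LSD1-mKO Gas, from 31 reads, against 1.24 CPM in the next library, a gap of 0.816.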

How the results depend on the processing

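In Gas 0 of the 9 genes were called under each alternative, and for the interaction likewise. In Sol the count went from 0 to 3 without a filter, 4 with DESeq2, 2 with limma voom and 4 with the exact test, and remained 0 with each library left out. Between the muscles of WT it was 1 to 3 with 1 library left out, and in LSD1-mKO 3 to 4. Genes called over the whole table went in Gas from 4 to 10 without a filter, 132 with DESeq2, 340 with voom, 104 with the exact test, 62 with all 16 libraries in 1 fit, 8 with the newer fit and 1 to 7 with 1 library left out. In Sol they went from 129 to 336, 605, 730 and 560 under the first 4 of these, 287 with the ribosomal covariate, 23 without the library highest in ribosomal protein level and 11 to 228 with 1 library left out. For the interaction they went from 0 to 21 with DESeq2, 103 with voom and 0 to 1 with 1 library left out, and for the muscles of WT from 2337 to 5599 with voom and 1132 to 2839. The cause was not tested.

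With the replicate number as a block, 2 of the 9 genes were called in Sol, *Rian* (3.11, adjusted p = 0.0273) and *Peg3* (1.59, adjusted p = 0.0205), with 412 genes over the table. The labels do not say that equal numbers pair WT with LSD1-mKO libraries. Replicates 4 and 5 of LSD1-mKO have no WT library of that number and do not inform this estimate. These Sol calls therefore rest on an arbitrary matching. For the interaction 1 gene was called. In the comparison of the LSD1-mKO muscles the block ended the call of *Rian* and gave that of *Mest*, and it changed no other call of the 9 genes.

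Signs turned for small effects. *Meg3* in Gas was 0.082 with voom, 0.029 with the block, 0.21 with the ribosomal covariate, 0.23 without the libraries highest in ribosomal protein and -0.29 to 0.27 with 1 library left out. The interaction turned for *H19* (-0.46 to 0.029 with 1 library left out), *Peg3* (0.33 with the covariate, -0.73 to 0.15), *Grb10* (-0.011 without a filter, -0.054 with voom, -0.12 without the libraries highest in ribosomal protein, -0.12 to 0.25) and *Mest* (0.32 with voom, 0.10 with the covariate, 0.031 without those libraries, -0.44 to 0.31). Sol against Gas in WT turned for *Meg3* (0.46 with the covariate, -0.67 to 0.074), *Rian* (-0.24 with voom, -0.52 with the covariate, -0.14 without those libraries, -0.22 to 0.33) and *Peg3* (-1.17 with the covariate, -0.053 to 0.71). In LSD1-mKO it turned for *Igf2* (-0.13 with the covariate), *Mirg* (-0.073 with voom, -0.26 to 1.27) and *Peg3* (-0.037 with voom, -0.84 with the covariate, -0.21 without those libraries, -0.33 to 0.56).

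With the covariate, *H19* and *Grb10* were no longer called between the muscles of WT (adjusted p = 0.132 and 0.138), and *Igf2* was (-0.96, adjusted p = 0.00721). In LSD1-mKO the covariate ended the call of *Rian* (1.37, adjusted p = 0.144) and gave one of *Meg3* (1.22, adjusted p = 0.0452). Voom and leaving out the libraries highest in ribosomal protein also gave the call of *Igf2* in WT and ended that of *Rian* in LSD1-mKO. With 1 library left out, the log2 ratio differences in Sol stayed at 1.15 to 1.80 for *Rian* to *Meg3* and 0.59 to 0.90 for *H19* to *Igf2*, in designs too small to reach an exact p under 0.05.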
